A study of Rattus norvegicus with 8 samples.

Results

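The distal segment of a cut sciatic nerve was compared with the nerve of the other side, 1 day after transection in rats. The comparison rests on 2 of the 8 samples of the series, taken by the headings of the deposited value table, with 1 array a side. Both came from adult female Sprague-Dawley rats, and each was a pool of 3 animals. The distal sample was the segment beyond a mid-thigh cut of the left sciatic nerve. The contralateral sample was the right sciatic nerve of the same day, which the label calls a control and ties to an injection of PBS that no protocol describes. Whether the same 3 animals gave both pools is not stated. Total RNA was hybridised to one-colour Agilent expression arrays. Genes of 6 classes were followed through these 2 samples: transporters, channels, transcription factors, metabolic enzymes, receptors, and guidance and adhesion genes.

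When an axon is cut, the part beyond the cut loses its cell body and breaks down, a process called Wallerian degeneration. The Schwann cells that ensheathed it leave the myelinating state, and blood leukocytes enter the segment and help to clear debris. Around the fibres lie a fibroblast-rich matrix, the perineurium (a sleeve of flat cells joined by tight junctions) and endoneurial vessels, which together form the blood-nerve barrier. Transporters and channels set what crosses these cells, while guidance and adhesion proteins hold them to each other and to axons.

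The sources pair arrays with samples in conflicting ways. The distal column of the value table ranked as the scan recorded under the distal sample did. The contralateral column ranked as a scan recorded under Schwann cells given S100A8/A9 for 1 h, with a Spearman rho of 1.00 across probes, against 0.900 for the scan recorded under the contralateral sample. That second scan ranked as the column of an injured spinal cord. The proximal nerve and unstimulated Schwann cell columns, whose levels are given for some genes below, carry the same doubt, with a rho of 0.863 and 0.862 to the scans recorded under them. All values below follow the column headings, and those of the scans as recorded are given among the alternatives.

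Of 15153 genes named on the array, 12760 had deposited values, and 12126 were well above background on at least 1 of the 2 arrays and are called measured here. Levels are the deposited log2 values of 1 probe per gene, and a difference is the distal minus the contralateral level, so that 1 is 2-fold. With 1 array a side no difference has a replicate check, and no p-value is given. The error printed after ± is the technical error of the spots of a probe, with a median of 0.12 over genes. It leaves out all spread between animals and arrays. A gene that was dim on 1 array has a bound, written as at least or at most. In a whole nerve, fewer cells of a type and less RNA per cell cannot be told apart.

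Over all measured genes, 1629 (13.4%) were at least 2-fold higher in the distal nerve and 1735 (14.3%) at least 2-fold lower, and the median difference was 0.01. At 4-fold the shares were 4.16% higher and 3.88% lower. The 2 columns share a median of 8.03 and an upper quartile of 10.74. The near-0 median difference and the balance of these shares thus say little about the nerve. The classes differed in balance. Of 315 transporters measured, 54 (17.1%) were higher and 54 (17.1%) lower. Metabolic genes stood close to the background of all genes, with 98 of 689 (14.2%) higher and 109 (15.8%) lower. Channels leaned to lower values, with 21 of 201 (10.4%) higher and 53 (26.4%) lower. Transcription factors stood nearer the background, with 39 of 370 (10.5%) higher and 63 (17%) lower. Among 186 receptors 25 (13.4%) were higher and 38 (20.4%) lower. Guidance and adhesion genes had the most one-sided count of the 6 classes, with 13 of 177 higher and 75 (42.4%) lower, and a median of -0.71. Taking the matched scans with normexp background correction instead of the deposited values left 1008 genes higher and 981 lower over all genes. Taking the contralateral scan as recorded gave 1695 and 2491, and 40 of the 168 genes named below that were past 2-fold and had a value then took the opposite sign.

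**Figure D1:**
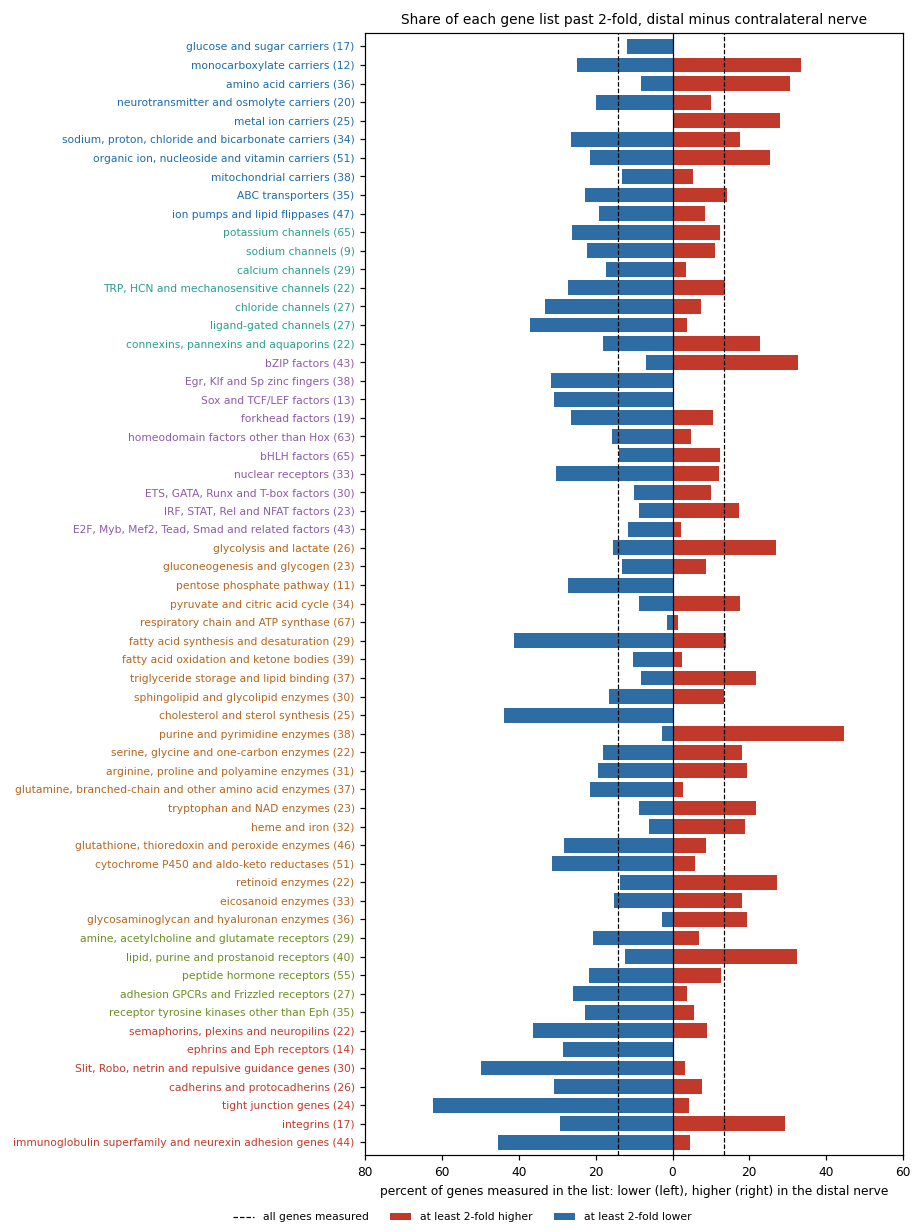
Bars give, for each gene list (number measured in brackets, names coloured by class), the percent of genes at least 2-fold higher (right, red) or lower (left, blue) in the distal nerve; dashed lines mark 13.4% and 14.3%, the shares of all 12126 genes. Tight junction genes reach the furthest to the left and purine and pyrimidine enzymes the furthest to the right.

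Markers of other cells moved with these groups. Neutrophil markers (7 of 10 higher, 1 lower, median 2.56), macrophage markers (10 of 15 higher, median 1.71) and T and NK cell markers (9 of 11 higher, 1 lower, median 1.44) stood higher in the distal nerve. All 9 proliferation markers were higher, with a median of 4.42. Skeletal muscle markers were higher too, 9 of 14 with 2 lower and a median of 1.38. On the lower side were 12 of 14 myelinating Schwann cell markers (median -2.11), 8 of 10 fibroblast markers (-1.49), 4 of 6 perineurial markers (-2.01) and 4 of 10 neuron and axon markers (-0.89). Non-myelinating and repair Schwann cell markers were lower in 5 of 12 cases and higher in 3 (median -0.10), and mural cell markers were lower in 3 of 11 (-0.48). The log2 of the summed levels went from 11.53 in the contralateral to 15.35 in the distal nerve for neutrophil markers, from 18.09 to 18.41 for macrophage, 10.44 to 11.94 for T and NK cell, 12.24 to 14.92 for proliferation and 12.38 to 13.40 for muscle markers. It went from 19.44 to 18.48 for myelinating Schwann cell, 16.23 to 14.41 for non-myelinating and repair Schwann cell, 19.66 to 18.21 for fibroblast, 15.13 to 14.09 for mural cell, 17.12 to 15.13 for perineurial, 17.70 to 17.14 for adipocyte and 14.43 to 12.97 for neuron markers. Neutrophil Ngp, perineurial Gjb6, muscle Myh2 and neuronal Syt1 were not well above background on either array. Mast cell and erythroid markers had no member past 2-fold. The part of these cell types in the gene differences below was not tested.

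Among the transporters, the lists that carry lactate, amino acids and metals held more than their background share of higher genes, and no metal ion carrier was 2-fold lower. Lactate leaves cells through Slc16a3 (MCT4), which stood at 11.77 in the distal and 7.85 in the contralateral nerve, a difference of 3.92 ± 0.12 or 15.1-fold. It was also high in the proximal segment of the cut nerve (12.82) and low in unstimulated cultured Schwann cells (8.07). The family did not share a direction: 4 of its 12 members were higher and 3 lower. Slc16a6 differed by 2.26 ± 0.21, while Slc16a1 (MCT1, which also moves lactate) differed by -1.11 ± 0.08. Slc16a11 stood at 12.14 in the distal and 14.06 in the contralateral nerve, a difference of -1.92 ± 0.08.

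Amino acid carriers were higher in 11 of 36 cases and lower in 3. The largest values were 2.36 (a bound) for Slc36a3, 1.87 ± 0.17 for Slc38a6, 1.85 ± 0.08 for Slc7a8 (LAT2, for large neutral amino acids) and 1.84 ± 0.09 for Slc38a7. At the other end Slc36a2, a proton-coupled carrier of small amino acids, stood at 10.08 in the distal and 12.89 in the contralateral nerve, a difference of -2.81 ± 0.08. Of 25 metal ion carriers 7 were higher. They were led by Slc11a1 (NRAMP1, which moves metal ions out of phagosomes), at 10.32 in the distal and 7.67 in the contralateral nerve, and by Slc39a14 (ZIP14, an importer of zinc and iron), at 9.02 and 6.38. Their differences were alike, 2.66 ± 0.12 and 2.64 ± 0.28. Macrophages are the main site of Slc11a1, and the macrophage markers given above were higher beside it; their part was not tested.

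Carriers of organic ions, peptides and vitamins held both ends of the class, with 13 of 51 higher and 11 lower. Slco4a1, a carrier of thyroid hormones and other anions, stood at 8.92 in the distal nerve, and at 2.99, not well above background, in the contralateral nerve. Its difference was at least 5.93, or 60.9-fold, the largest among transporters. It was also high in the proximal segment (8.26). Slco1a4, a family member of the blood-brain barrier, went the opposite way, with 9.18 in the distal and 12.19 in the contralateral nerve and a difference of -3.01 ± 0.08. Slc15a2 (PEPT2, a peptide carrier of glia) was not well above background in the distal nerve (2.39 against 6.15), a difference of at most -3.65. The exporters split likewise. The endothelial drug exporter Abcb1a (P-glycoprotein) stood at 4.89 in the distal and 7.19 in the contralateral nerve, a difference of -2.29 ± 0.17, whereas Abcc2 (MRP2, an exporter of conjugates) was at least 3.23 higher and Abca1 (which loads cholesterol onto lipoproteins) differed by 1.38 ± 0.09. Abcb1a is itself one of the endothelial markers, most of which lay within 2-fold, and the part of these cells was not tested.

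Single carriers of creatine, glucose and citrate were lower. Slc6a8, which imports creatine, stood at 12.00 in the distal and 14.09 in the contralateral nerve, a difference of -2.09 ± 0.04, and Slc25a1, which brings citrate out of mitochondria for lipid synthesis, differed by -1.53 ± 0.12. The insulin-responsive glucose carrier Slc2a4 (GLUT4) stood at 7.56 and 9.76, a difference of -2.20 ± 0.04. Of the 17 sugar carriers 2 were lower, none was higher and 15 lay within 2-fold. Slc2a4 and Slc36a2 are also genes of fat cells, and of 11 adipocyte markers 2 were lower and none higher, with a median of -0.82. The part of fat in these values was not tested.

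Beta subunits and FXYD regulators of the sodium pump showed opposite differences. The beta subunit brings the pump to the cell surface, and small FXYD proteins tune it. Among beta subunits, Atp1b1 differed by 2.14 ± 0.08 (12.21 against 10.06) and Atp1b2 by -1.68 ± 0.08 (10.29 against 11.97). The FXYD proteins split in the same manner. Fxyd1 (phospholemman) stood at 11.92 in the distal and 14.58 in the contralateral nerve, a difference of -2.66 ± 0.08, and Fxyd3, Fxyd6 and Fxyd7 differed by -2.31, -2.20 and -2.16. Fxyd5 (dysadherin) stood at 13.57 and 11.59, a difference of 1.98 ± 0.08. Atp1b2 and Fxyd7 are set beside their relatives and were chosen after their values were seen. Atp2a1, the calcium pump of fast muscle, differed by 1.65 ± 0.12. It is itself one of the muscle markers, most of which were higher, and the part of muscle was not tested.

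More channels were lower than higher in every channel list except that of connexins, pannexins and aquaporins (5 of 22 higher, 4 lower). Potassium channels set the resting potential of Schwann cells, axons and leukocytes, and 8 of 65 were higher and 17 lower. Kcnn4, the calcium-activated channel of lymphocytes and macrophages, led the higher ones, at 8.44 in the distal and 5.52 in the contralateral nerve, a difference of 2.92 ± 0.43. The inward rectifier Kcnj13 stood at 8.03 and 10.99, a difference of -2.96 ± 0.12, and the stretch-sensitive Kcnk2 (TREK-1) at 8.16 and 10.95, a difference of -2.80 ± 0.12. Kcnk13, of the same two-pore family as Kcnk2, went the other way, with 1.73 ± 0.08.

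Ligand-gated channels were lower in 10 of 27 cases and higher in 1. That 1 was P2rx4, the ATP-gated channel of macrophages, at 8.89 in the distal and 7.42 in the contralateral nerve, a difference of 1.47 ± 0.15. Its relative P2rx2 stood at 4.36 and 6.97, a difference of -2.61 ± 0.11. Gria2, a subunit of AMPA glutamate receptors, was not well above background in the distal nerve (2.20 against 6.98), so that the contralateral level was at least 22.2-fold higher. The same probe stood at 10.37 in unstimulated Schwann cells and at 1.61 in the proximal segment. Grin3a, an NMDA receptor subunit, differed by at most -3.28, and the serotonin-gated Htr3a by -2.79 ± 0.17. Of the 67 ligand-gated genes listed, 22 in the value table were not well above background on either array.

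Cation channels of sensation also pointed both ways. Trpv2 stood at 11.36 in the distal and 8.67 in the contralateral nerve, a difference of 2.69 ± 0.09, while Trpv1, the capsaicin receptor of pain fibres, differed by -1.56 ± 0.17. Scn9a, the sodium channel Nav1.7 of sensory axons, stood at 4.88 and 7.78, a difference of -2.90 ± 0.17. Neuron and axon markers were lower too (4 of 10), and their part was not tested. The auxiliary calcium channel subunits Cacnb4 and Cacnb3 differed by -2.38 ± 0.17 and -2.27 ± 0.08. Among 27 chloride channels 9 were lower and 2 higher. Best1, a bestrophin, stood at 3.37 and 7.09, a difference of -3.73 ± 0.48 or 13.3-fold, and Cftr differed by -2.82 ± 0.28. Aquaporins divided as well: the glycerol channel Aqp9 differed by 1.81 ± 0.12 and the water channel Aqp1 by -1.20 ± 0.04. Gjb1, the connexin of myelin, differed by -1.21 ± 0.10. It is itself one of the myelinating Schwann cell markers, most of which were lower, and the part of these cells was not tested.

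**Figure D2:**
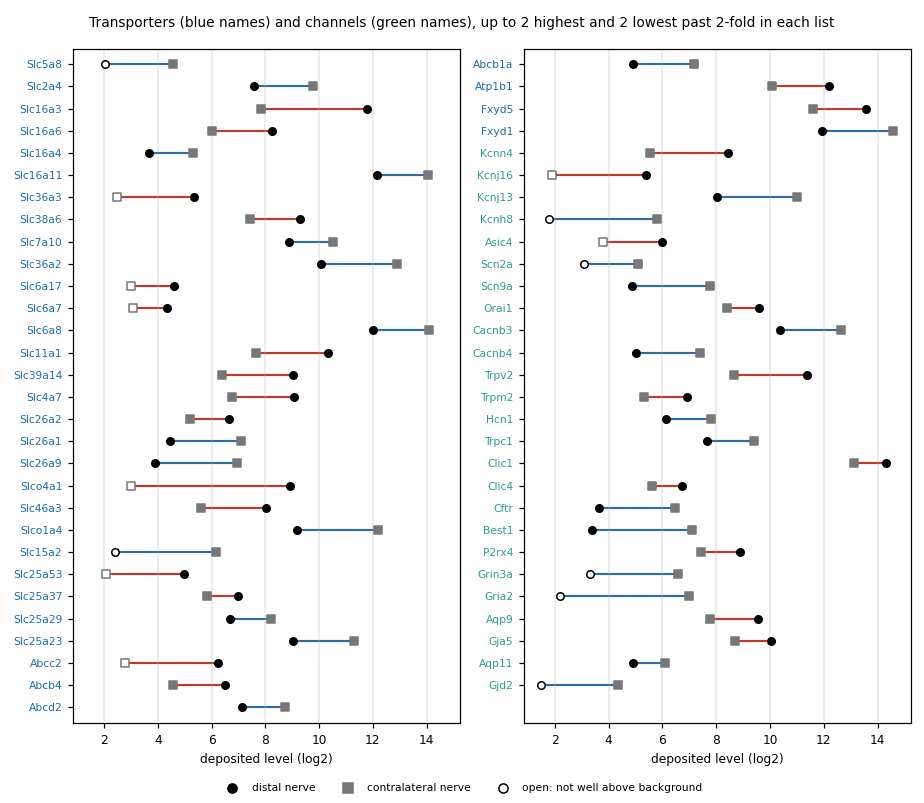
Each line joins the deposited log2 level (horizontal axis) of 1 gene in the contralateral nerve (grey square) and the distal nerve (black circle), red where the distal level is higher and blue where it is lower; open marks were not well above background. Up to 2 of the highest and 2 of the lowest transporters and channels past 2-fold in each list are drawn, among them Slco4a1, the longest red line, with 2.99 and 8.92.

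Among transcription factors, the bZIP list was the one with the largest share of higher genes, 14 of 43 with 3 lower. Fosl1, a partner of Jun in the AP-1 complex, had the largest value of the 60 lists in the 6 classes. It stood at 10.41 in the distal nerve and at 3.94, not well above background, in the contralateral nerve, a difference of at least 6.48 or 89.0-fold. The proximal segment (9.96) and unstimulated Schwann cells (9.62) were high as well. Batf, an AP-1 member of leukocytes, stood at 10.27 in the distal and 6.78 in the contralateral nerve, a difference of 3.48 ± 0.19. Cebpe, a factor of granulocyte maturation, differed by 2.91 ± 0.21. Jun and Atf3, which mark injured Schwann cells and neurons and are named after their values were seen, lay within 2-fold. Jun stood at 11.19 and 11.47, a difference of -0.28 ± 0.08, and Atf3 at 11.05 and 11.86, a difference of -0.81 ± 0.08. At day 1 these pools thus held a high level of Fosl1 with levels of Jun and Atf3 within 2-fold of the contralateral nerve.

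Factors of white blood cells and of dividing cells were further leading genes. Spib, an ETS factor of B and dendritic cells, stood at 9.77 in the distal and 4.00 in the contralateral nerve, where it was not well above background, a difference of at least 5.77. Its relative Spi1 (PU.1, of the myeloid lineage) differed by 2.01 ± 0.12. Irf8, also myeloid, stood at 7.74 and 4.29, a difference of 3.45 ± 0.69. Mybl2, which drives genes of cell division, stood at 8.38 in the distal and 3.15 in the contralateral nerve, at least 5.23 higher, and Foxm1, with a like role, differed by 2.27 ± 0.10. The leukocyte and proliferation markers stood higher in the same array, and their part was not tested.

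Other families leaned lower. None of the 38 Egr, Klf and Sp factors was 2-fold higher and 12 were lower, with no test behind either count. Klf15, a target of glucocorticoids, stood at 9.25 in the distal and 12.16 in the contralateral nerve, a difference of -2.91 ± 0.04, and Klf5 and the hedgehog target Gli1 differed by -2.43 ± 0.05 and -2.14 ± 0.12. Foxb1 had the lowest value of the 60 lists in the 6 classes, at 1.67 in the distal nerve, not well above background, against 7.53, a difference of at most -5.03. Scx (scleraxis, a factor of tendon and other connective tissue) stood at 6.52 and 9.56, a difference of -3.04 ± 0.11. Fibroblast markers were lower in 8 of 10 cases beside it, and their part was not tested. Sox10, which maintains Schwann cell identity, stood at 10.69 in the distal and 12.17 in the contralateral nerve, a difference of -1.48 ± 0.08, and its relative Sox8 differed by -1.44 ± 0.17. Sox10 is itself one of the non-myelinating and repair Schwann cell markers, which were mixed, and the part of these cells was not tested.

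Nuclear receptors had 10 of 33 members lower and 4 higher. The retinoid X receptors split: Rxrg stood at 8.25 in the distal and 11.40 in the contralateral nerve, a difference of -3.14 ± 0.12, and Rxra at 6.12 and 4.89, a difference of 1.23 ± 0.43. The COUP factors Nr2f1 and Nr2f2 had like values, -2.21 ± 0.11 and -2.02 ± 0.08. Nr1d1, the clock repressor REV-ERB alpha, differed by -2.20 ± 0.10, and another clock factor, the bZIP gene Tef, by -1.97 ± 0.04. The labels give no time of day for either collection. Nr4a3, an immediate early gene, differed by 1.89 ± 0.42.

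**Figure D3:**
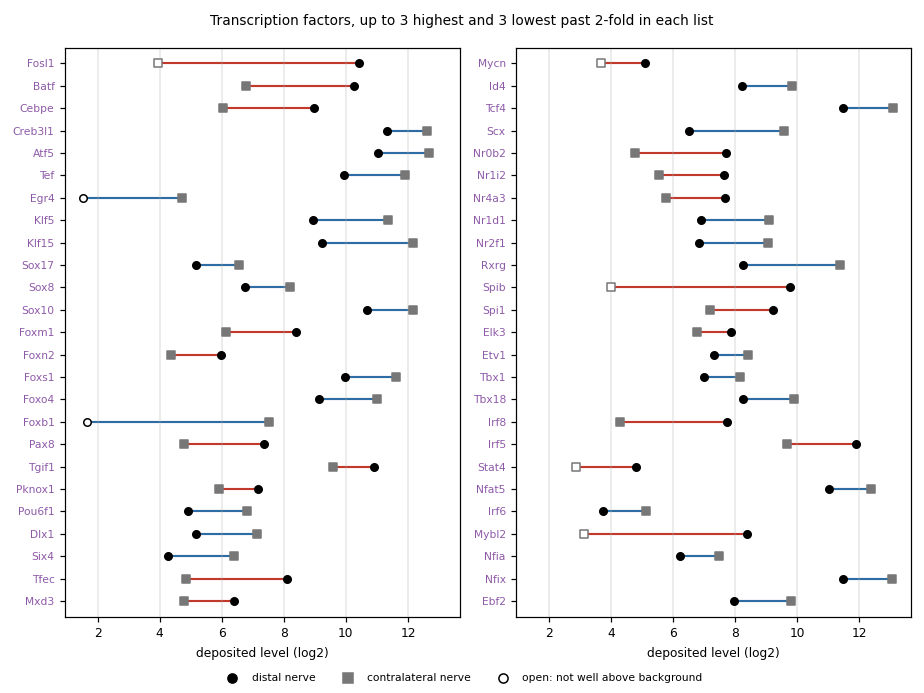
Deposited log2 levels (horizontal axis) of transcription factors in the contralateral (grey square) and distal (black circle) nerve, joined by red lines where the distal level is higher and blue where it is lower, with open marks for probes not well above background. Only the few highest and few lowest genes past 2-fold in each list are drawn. Fosl1 (3.94 and 10.41) and Spib (4.00 and 9.77) have the longest red lines and Foxb1 (7.53 and 1.67) the longest blue line.

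In glycolysis 7 of 26 genes were higher and 4 lower, and enzymes of 1 pathway pointed both ways. Hk3, the hexokinase of myeloid cells, stood at 9.51 in the distal and 4.34 in the contralateral nerve, a difference of 5.17 ± 0.69. Hk2, which catalyses the same step, differed by 2.12 ± 0.21 and Pkm (pyruvate kinase) by 1.84 ± 0.11. Aldoc (aldolase C) stood at 11.32 and 14.13, a difference of -2.80 ± 0.11, and Pfkm and Ldhb differed by -2.09 ± 0.08 and -1.84 ± 0.08. Pck1, which makes glucose and glycerol precursors, stood at 5.24 and 8.87, a difference of -3.62 ± 0.15; it is among the adipocyte markers. The respiratory chain was the most even list, with 65 of 67 genes within 2-fold. Its 1 higher gene was Cox6a2, a muscle form of a cytochrome oxidase subunit, with 2.17 ± 0.21, beside the higher muscle markers, whose part was not tested.

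Of 29 genes of fatty acid synthesis 12 were lower and 4 higher. Elovl6, a fatty acid elongase, stood at 10.17 in the distal and 12.46 in the contralateral nerve, a difference of -2.29 ± 0.08, and the desaturase Scd2 at 14.91 and 16.92, a difference of -2.01 ± 0.03. The sphingolipid enzymes Fa2h, Ugt8 and Gal3st1, which act in turn to make galactosylceramide and sulfatide, had like values of -2.79 ± 0.03, -2.44 ± 0.12 and -2.41 ± 0.17. Their list as a whole was even, with 4 of 30 higher and 5 lower. Sphk1, which makes sphingosine 1-phosphate, went the other way in the same list, at 7.45 and 4.08, a difference of 3.37 ± 0.69. Genes of lipid storage and binding were higher in 8 of 37 cases and lower in 3. They included Apoc1 (2.60 ± 0.06), Angptl4, an inhibitor of lipoprotein lipase (2.39 ± 0.08), and Plin2, the coat of lipid droplets (2.10 ± 0.08). Myelinating Schwann cell markers were lower in 12 of 14 cases, with Ugt8 among them, and their part was not tested.

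Of 25 genes of sterol synthesis 11 were lower and none higher at 2-fold, with a median of -0.95. Hmgcs1, which makes HMG-CoA, stood at 14.33 in the distal and 16.69 in the contralateral nerve, a difference of -2.36 ± 0.07. The late enzymes Tm7sf2, Sc5d and Nsdhl differed by -1.84 ± 0.08, -1.65 ± 0.08 and -1.55 ± 0.08. Idi1 (isopentenyl diphosphate isomerase) differed by -1.53 ± 0.08 and Msmo1 (methylsterol monooxygenase) by -1.47 ± 0.07, both named after their values were seen. As 23 of the 25 genes had a difference below 0, their promoters were searched on both strands for the CCAAT box and for the sterol element TCACNCCAC, in the 250 bases before the start given by RefSeq (GRCr8). CCAAT was in 7 of the 8 lower genes with a promoter in the table, in 9 of the 12 genes within 2-fold and in 34.3% of all 27457 promoters. TCACNCCAC was in none of these 20 and in 0.976% of all. Other motifs were searched too. The AP-1 motif (TGANTCA) was in 2 of the 8 and 0 of the 12, against 6.36% of all. The antioxidant element (TGACNNNGC) was in 2 and 3, against 10.2%, and E2F motifs, spelled out below, in 0 and 0. The promoters of 3 lower genes are shown because they hold CCAAT more than once, with it, or ATTGG for the other strand, in capitals. They lie at chr2:53382054-53382303 (plus strand) for Hmgcs1, chr17:66547525-66547774 (minus strand) for Idi1 and chr16:29746863-29747112 (plus strand) for Msmo1.
Hmgcs1: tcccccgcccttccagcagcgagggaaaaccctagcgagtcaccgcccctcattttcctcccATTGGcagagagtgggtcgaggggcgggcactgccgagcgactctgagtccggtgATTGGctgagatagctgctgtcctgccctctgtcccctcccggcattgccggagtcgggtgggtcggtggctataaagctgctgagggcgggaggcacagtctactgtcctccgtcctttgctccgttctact
Idi1: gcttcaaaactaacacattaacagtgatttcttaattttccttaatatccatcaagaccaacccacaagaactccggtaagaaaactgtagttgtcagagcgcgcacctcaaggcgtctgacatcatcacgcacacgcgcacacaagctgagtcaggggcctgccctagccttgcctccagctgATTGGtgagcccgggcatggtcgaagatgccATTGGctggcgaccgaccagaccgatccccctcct
Msmo1: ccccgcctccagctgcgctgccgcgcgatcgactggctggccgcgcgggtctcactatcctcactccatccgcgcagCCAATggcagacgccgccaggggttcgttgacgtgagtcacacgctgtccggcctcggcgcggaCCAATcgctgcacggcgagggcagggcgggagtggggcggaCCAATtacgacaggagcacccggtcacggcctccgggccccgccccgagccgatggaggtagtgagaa
Hmgcs1 and Idi1 hold the letters 2 times and Msmo1 3 times. A match describes the window and is no evidence of binding. A missing match to these exact letters in 250 bases is no evidence that such an element is absent.

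Purine and pyrimidine enzymes, of breakdown as well as synthesis, were the metabolic list with the largest share higher. Of 38 measured, 17 were higher and 1 lower, with a median of 0.90. Rrm2, the inducible subunit of ribonucleotide reductase, which makes the DNA precursors, stood at 13.28 in the distal and 8.44 in the contralateral nerve, a difference of 4.84 ± 0.08 or 28.7-fold. It stood at 12.98 in the proximal segment and at 14.71 in unstimulated Schwann cells. Its large subunit Rrm1, named after its value was seen, differed by 1.73 ± 0.60. The thymidine enzymes were high too: Tk1 stood at 10.68 and 6.04, a difference of 4.64 ± 0.19, and Tyms at 9.26 and 6.60, a difference of 2.66 ± 0.20. The 1 lower gene was Dpyd, which breaks pyrimidines down, with -1.83 ± 0.28. Rrm2 and Tk1 are also proliferation markers, all 9 of which were higher. E2F motifs (TTTNGCGC or TTCCCGCC, both strands) were in 2 of the 11 higher nucleotide genes with a promoter in the table, in 1 of the 21 others and in 2.73% of all promoters. Rrm2 and Tk1 had no promoter there and were not searched. CCAAT was in 4 of the 11 and 2 of the 21, AP-1 in 0 and 2, the antioxidant element in 1 and 0, and TCACNCCAC in 0 and 0. The promoter of Tyms, which holds 1 E2F motif, lies at chr9:120776084-120776333 (minus strand, GRCr8) and is shown with the motif in capitals.
Tyms: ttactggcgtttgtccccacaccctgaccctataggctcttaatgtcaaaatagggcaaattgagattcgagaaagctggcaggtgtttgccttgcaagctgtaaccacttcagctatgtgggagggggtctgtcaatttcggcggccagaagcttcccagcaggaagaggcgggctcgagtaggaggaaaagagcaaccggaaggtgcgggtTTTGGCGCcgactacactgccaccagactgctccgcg

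Amino acid enzymes differed between lists. Those of glutamine, branched-chain and other amino acids leaned lower, with 8 of 37 lower, 1 higher and a median of -0.40. Their lowest genes were Maob (monoamine oxidase B), with -2.30 ± 0.08, and Aspa (which splits N-acetylaspartate), with -2.20 ± 0.08. The serine, glycine and one-carbon list (4 of 22 higher, 4 lower) and the arginine, proline and polyamine list (6 of 31 higher, 6 lower) were even. Phgdh, the first enzyme of serine synthesis, stood at 13.27 in the distal and 14.98 in the contralateral nerve, a difference of -1.71 ± 0.07. The mitochondrial one-carbon enzymes Shmt2 and Aldh1l2, which use serine and folate, differed by 1.70 ± 0.09 and 1.87 ± 0.09. Enzymes that compete for arginine also had opposite signs. Arg1 (arginase) stood at 11.43 and 9.81, a difference of 1.62 ± 0.04, and Nos2 (inducible nitric oxide synthase) at 6.40 and 7.91, a difference of -1.50 ± 0.14. In the breakdown of tryptophan and NAD, Kmo was at least 3.89 higher and the NAD glycohydrolases Bst1 and Cd38 differed by 2.90 ± 0.09 and 2.35 ± 0.21. Aox4, an aldehyde oxidase, stood at 4.95 and 8.89, a difference of -3.94 ± 0.15.

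Hmox1 (heme oxygenase, which frees iron from heme) stood at 14.32 in the distal and 10.18 in the contralateral nerve, a difference of 4.13 ± 0.03 or 17.6-fold. Akr1b8, an aldose reductase, stood at 12.19 and 8.29, a difference of 3.90 ± 0.09. Other detoxifying genes were mostly lower where they passed 2-fold: 16 of 51 P450 and aldo-keto reductase genes, with 3 higher, and 13 of 46 glutathione and peroxide genes, with 4 higher. Cyp2e1, an ethanol-oxidising P450, was not well above background in the distal nerve (3.02 against 7.87), a difference of at most -4.85. Akr1c19 stood at 8.14 and 11.80, a difference of -3.66 ± 0.12, so 2 aldo-keto reductases held opposite ends of 1 list. The glutathione transferases Gstm2, Gsta4, Gsta3 and Gsta1 ran from -2.38 to -2.08. Prdx5 (a peroxiredoxin) and Gpx1 (glutathione peroxidase) differed by 1.83 ± 0.07 and 1.48 ± 0.03. Probes of close relatives, as in the Gst, Akr, Slco and Cldn families, may share signal, and probe sequences were not analysed here.

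Retinoic acid and prostanoid genes pointed both ways. Cyp26b1, which degrades retinoic acid, stood at 7.32 in the distal and 11.33 in the contralateral nerve, a difference of -4.02 ± 0.04. Aldh1a1, which makes it, differed by -2.13 ± 0.08, and Rdh10, which acts 1 step before, by 2.34 ± 0.12. Prostanoid synthases split by product: Ptgis (prostacyclin) differed by 2.61 ± 0.09 and Tbxas1 (thromboxane) by 1.77 ± 0.08, against -2.35 ± 0.08 for Ptgds (prostaglandin D2). Of 36 glycosaminoglycan genes 7 were higher and 1 lower. Has1, a hyaluronan synthase, stood at 10.81 and 8.03, a difference of 2.79 ± 0.09, and Hpse (heparanase) differed by 2.01 ± 0.08.

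**Figure D4:**
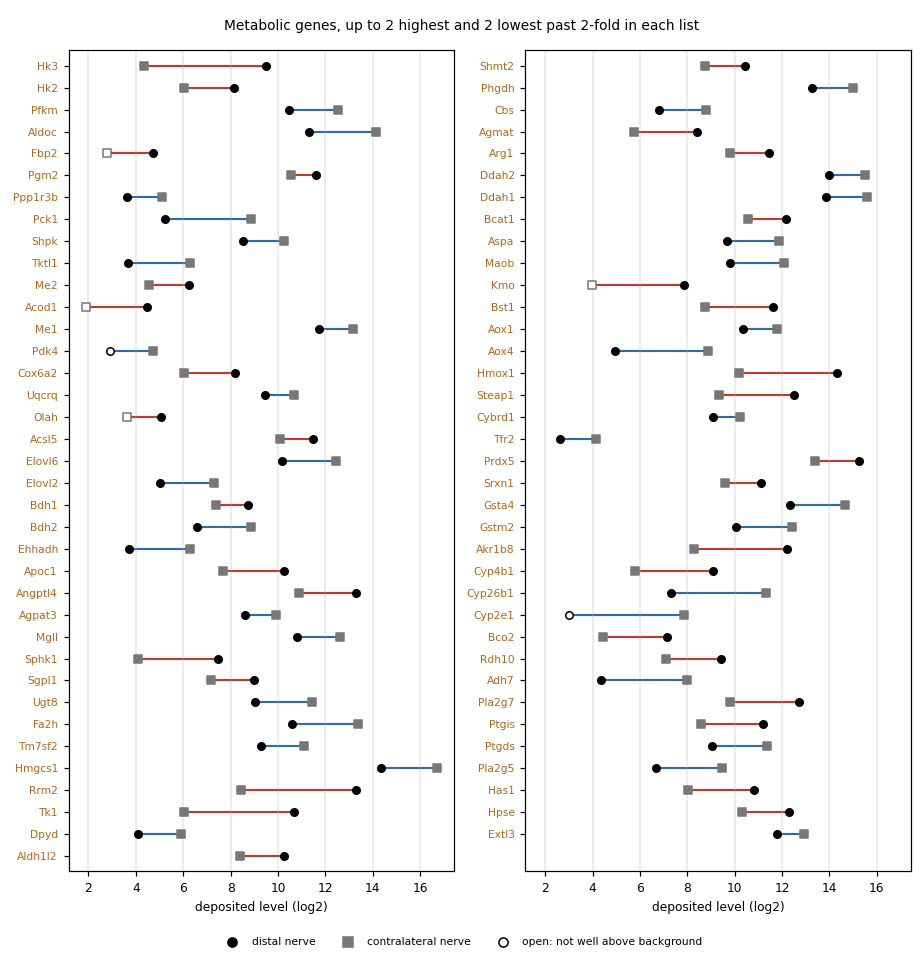
Deposited log2 levels (horizontal axis) of metabolic genes in the contralateral (grey square) and distal (black circle) nerve, joined by red lines where the distal level is higher and blue where it is lower, with open marks for probes not well above background. Only the few highest and few lowest genes past 2-fold in each list are drawn. Hk3 (4.34 and 9.51) and Rrm2 (8.44 and 13.28) are among the long red lines, and Cyp2e1 (7.87 and 3.02) and Cyp26b1 (11.33 and 7.32) among the long blue lines.

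Receptors for lipids, purines and prostanoids were the receptor list with the largest share higher, 13 of 40 with 5 lower. Ptger2, the EP2 receptor for prostaglandin E2, stood at 7.98 in the distal nerve and at 3.93, not well above background, in the contralateral nerve, a difference of at least 4.04. The adenosine receptor Adora2b stood at 10.87 and 8.28, a difference of 2.59 ± 0.12. P2ry6, a receptor for UDP on macrophages, differed by 2.09 ± 0.03. Lpar1, the receptor for lysophosphatidic acid on Schwann cells, stood on the other side, at 9.21 and 11.16, a difference of -1.95 ± 0.08, and P2ry1, for ADP, differed by -1.82 ± 0.10.

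The other receptor lists leaned lower. Mrgprg, of the Mas-related family, had the lowest value, at 4.00 in the distal and 8.47 in the contralateral nerve, a difference of -4.47 ± 0.22. The muscarinic receptor Chrm3 differed by -2.32 ± 0.15 and the natriuretic peptide receptor Npr2 by -2.02 ± 0.04. F2rl2, a receptor for thrombin, and Ednrb, for endothelin, were on the higher side, with 2.57 ± 0.42 and 1.50 ± 0.09. Of 35 receptor tyrosine kinases 8 were lower and 2 higher. Ntrk3 (TrkC, for neurotrophin 3) stood at 8.02 and 10.45, a difference of -2.43 ± 0.12, and Erbb2, the partner of Erbb3 in neuregulin signalling to Schwann cells, differed by -1.40 ± 0.12. Csf1r, the growth factor receptor of macrophages and one of their markers here, differed by 1.08 ± 0.08. The probes of Ret disagreed, with -1.70 for the probe used and 0.34 for another.

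Guidance and adhesion genes were lower in every list past the background share, and 50.0% of the Slit, Robo, netrin and related genes were (15 of 30, with 1 higher and a median of -1.01). Lrrn1, a leucine-rich repeat protein of the neuronal surface, stood at 3.35 in the distal and 7.57 in the contralateral nerve, a difference of -4.22 ± 0.48 or 18.6-fold. It was low in the proximal segment (3.39) and in unstimulated Schwann cells (1.77) too. Its relative Lrrn3 differed by -2.87 ± 0.11, and Slitrk1 and Slitrk5, proteins of synapses, were at most -3.61 and -3.49. Among semaphorins Sema3b stood at 12.12 and 14.36, a difference of -2.24 ± 0.08, and Sema4g differed by -2.76 ± 0.16. Nrp1, a coreceptor for semaphorins and VEGF, was on the higher side, with 1.29 ± 0.07. Efnb3 was the lowest of 14 ephrin and Eph genes, with -2.57 ± 0.17, and none of the 14 was 2-fold higher.

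Tight junction genes had the largest share lower of all 60 lists, 15 of 24 with 1 higher and a median of -1.37. Claudins seal different barriers of the nerve. Cldn1, of the perineurium, stood at 10.94 in the distal and 13.68 in the contralateral nerve, a difference of -2.75 ± 0.03. Cldn19, of the myelin sheath, stood at 13.45 and 15.69, a difference of -2.24 ± 0.07, and Cldn5, of vessels, at 10.29 and 11.93, a difference of -1.64 ± 0.08. Claudins of all 3 sites thus stood lower in the distal nerve. Cldn24 and Cldn22, near relatives of each other, differed by -3.25 ± 0.08 and -2.70 ± 0.12. Occludin (Ocln) lay within 2-fold, at 9.60 and 10.32, and Cldn4 was the 1 higher gene, with 1.82 ± 0.42. Cldn5 and Ocln were named after their values were seen. Cldn1, Cldn19 and Cldn5 are themselves markers of perineurial, Schwann and endothelial cells; perineurial and Schwann cell markers were lower as given above, and endothelial markers were lower in 2 of 10 cases and higher in 1, with a median of -0.19. The part of these cells in the claudin values was not tested.

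Cell adhesion genes stood on both sides. Cdh2 (N-cadherin) stood at 4.62 in the distal and 7.45 in the contralateral nerve, a difference of -2.83 ± 0.11, Cdh19, a cadherin of the Schwann cell lineage, differed by -2.66 ± 0.12, and Cdh1 (E-cadherin) by -1.54 ± 0.08. Of 44 immunoglobulin superfamily and neurexin genes 20 were lower and 2 higher. The IgLON proteins Ntm, Negr1 and Opcml were together at its lower end, with -2.93 ± 0.17, -2.77 ± 0.17 and at most -2.67. Igsf6, of myeloid cells, stood at 11.96 and 9.21, a difference of 2.75 ± 0.04. Integrins were higher in 5 of 17 cases and lower in 5. Itgb2, with its partners Itgal and Itgam, makes the integrins of leukocytes, and it stood at 11.87 in the distal and 9.01 in the contralateral nerve, a difference of 2.87 ± 0.04. Itgal was at least 4.03 higher and Itgam differed by 2.27 ± 0.12. Itgb4, the laminin receptor subunit of perineurium and Schwann cells, stood at 14.27 and 16.58, a difference of -2.30 ± 0.07, and Itga1 and Itga8 differed by -1.70 ± 0.04 and -1.72 ± 0.07. Itgam, Itgb4 and Cdh2 are themselves among the macrophage, perineurial, and non-myelinating and repair Schwann cell markers. Leukocyte markers were mostly higher, and perineurial and myelinating Schwann cell markers mostly lower, as given above. Non-myelinating and repair Schwann cell markers were mixed, with 5 of 12 lower and 3 higher. The part of these cells was not tested.

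**Figure D5:**
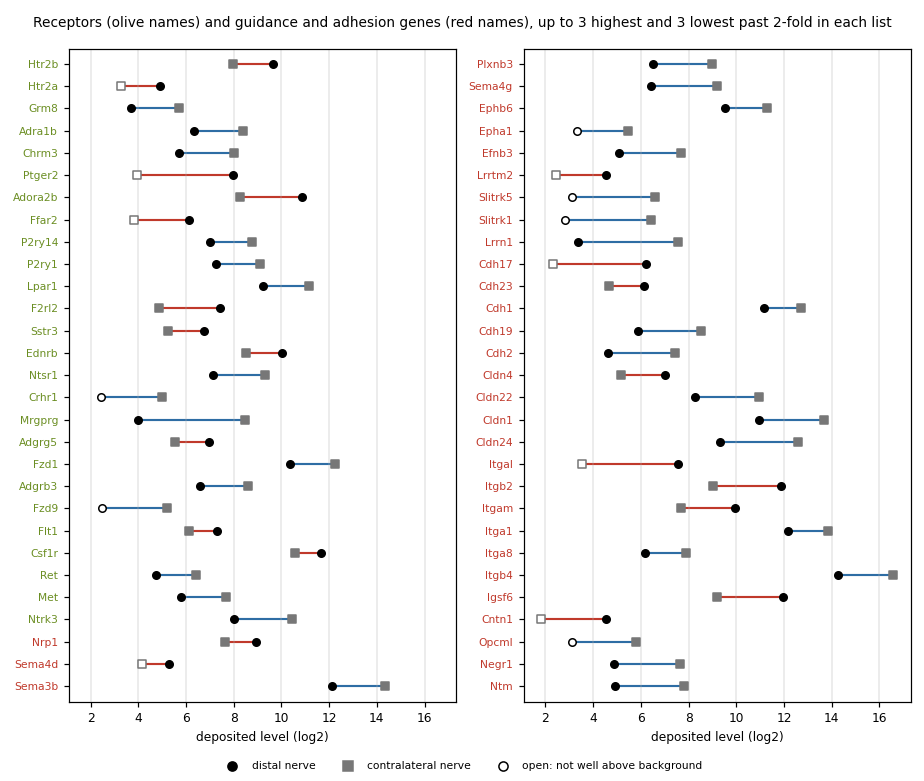
Deposited log2 levels (horizontal axis) of receptors and of guidance and adhesion genes in the contralateral (grey square) and distal (black circle) nerve, joined by red lines where the distal level is higher and blue where it is lower, with open marks for probes not well above background. Only the few highest and few lowest genes past 2-fold in each list are drawn, and among these blue lines outnumber red lines. Lrrn1 runs from 7.57 to 3.35 and Itgb2 from 9.01 to 11.87.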

How the data were processed

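Total RNA of 2 pools of 3 animals was measured on 1 Agilent one-colour array each, read, per the file headers, with version 10.7.3.1 of Feature Extraction (10.5 in the submitters' processing notes). The deposited value table holds the authors' log2 values for 24894 probes and 44 controls; its columns share the median 8.03, and its normalization is not given in the sources used. The deposited scanner files hold spot intensity, background-subtracted per the file headers. For each column, flags and spot errors were taken from the rank-matched scan. Per array, 75.7% (distal) and 72.0% (contralateral) of probes were well above background, and none was saturated; the number of arrays limits the precision.

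Accessions were matched to RefSeq symbols (GRCr8; 15207 of the 24894 probes), while the headers name the older build rn4, so only names were taken for probes. Each gene was represented by 1 probe, that of highest mean in the 8 columns, and kept if that probe was well above background on either array; a dim side was set to the higher of its own value and the lowest value of a probe above background, which gives a bound. The spot error is the SD between spots of a probe, pooled in 12 signal bins, over the root of the number of spots. Counts are of genes at least 2-fold apart. No test was possible. Genes were named by rule: in each list, up to 4 with the largest difference in each direction past 2-fold, and the 12 highest and 12 lowest over all lists. The members, the lists and the rule were chosen with earlier results of these data known. The counting was run on simulated data, made of the contralateral values with spot noise and 200 genes moved by 4-fold. That run held no spread between animals or arrays, so it says nothing about the precision of the counts. Alternatives used the matched scans (over the 75th percentile, or normexp with offset 50 and quantile normalization in limma 3.58.1, R 4.3.3), the scans as recorded, both arrays above background, no filter, and the mean of a gene's probes. Tables were made in Python 3.11.15 with pandas 2.3.3. A few results are not reported here.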

Additional observations from a re-analysis of the deposited data

How the results depend on the processing

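No paired analysis was possible because each group had 1 array. Of the genes named above, 169 were past 2-fold. All 169 kept their direction under the matched scans over the 75th percentile, under normexp and with the mean of a gene's probes. Under normexp 149 stayed past 2-fold. Direction was also kept by all 169 with no filter, and by the 152 with a value when both arrays had to be above background. Both of these settings reuse the deposited values, so neither could turn a direction and neither is a check. With normexp the counts, higher and lower, were 1008 and 981 for all genes, 25 and 33 for transporters, 9 and 32 for channels, 24 and 35 for transcription factors, 11 and 21 for receptors, and 7 and 48 for guidance and adhesion genes. With both arrays above background 8 guidance and adhesion genes were higher. With the scans as recorded, which set the distal nerve against the scan that ranks as an injured cord column, 112 transporters, 140 channels and 69 receptors were lower and 20 guidance and adhesion genes higher. Every other count of the 6 classes and of all genes stayed within a factor of 1.5 of the main one.

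Taking the scans as recorded turned the sign of 40 of these genes. The log2 differences that then lay below 0 were Abca1 -0.92, Apoc1 -2.34, Atp1b1 -2.86, Cldn4 -0.55, Cox6a2 -3.39, Csf1r -0.19, Ednrb -1.54, Itgam -0.050, Kcnn4 -0.075 and Rxra -0.17. Those above 0 were Aox4 1.81, Aqp1 3.60, Cdh1 1.70, Cdh19 0.84, Cftr 0.76, Cldn1 3.94, Cldn19 1.96, Cldn22 3.61, Cldn24 6.36, Dpyd 0.87, Elovl6 0.064, Erbb2 0.24, Fxyd6 1.63, Gli1 1.14 and Gstm2 1.54. Further ones were Hmgcs1 0.30, Idi1 1.38, Itgb4 1.17, Kcnj13 0.93, Klf5 0.78, Maob 0.40, Msmo1 0.73, Nos2 0.20, Nr2f2 0.68, Nsdhl 0.61, P2ry1 0.43, Pck1 2.31, Sema3b 0.63, Slc36a2 1.64 and Trpv1 0.91. Among list medians at least 2-fold from 0, it also turned those of 4 marker lists. They went to -0.050 for monocyte and macrophage, 0.32 for myelinating Schwann cell, 1.85 for fibroblast and 0.096 for perineurial cell. Turns of smaller medians were not counted. Some of those turned as well, among them sterol synthesis (-0.95 to 0.25) and amino acid carriers (0.21 to -0.44), while others kept their sign. Which record of the contralateral array is right was not tested, nor was the cause of the other moves. Low signal limits the bounds, and 64 of 2908 genes past 2-fold and measured on both arrays had a difference under 2 spot errors.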

Other observations

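Carriers of sodium, protons, chloride and bicarbonate were higher in 6 of 34 cases and lower in 9, and genes of the pentose phosphate pathway were higher in 0 of 11 and lower in 3. Among 63 homeodomain factors other than Hox, 3 were higher and 10 lower, from a difference of -2.13 for Six4 to 2.59 for Pax8, a factor of thyroid and kidney development. The bHLH factors were higher in 8 of 65 cases and lower in 9, with Tfec, a relative of Mitf in macrophages, at 3.25. Mitochondrial carriers were higher in 2 of 38 cases and lower in 5. Slc25a23, which exchanges ATP-magnesium for phosphate, was the lowest of them, at -2.30.

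Of the listed genes, 265 were on the array but outside the deposited value table. On the distal scan 9 of them were well above background, and 0 of these 9 were at least 2-fold higher than on the matched contralateral scan. The rest of the 265 were not compared, and lower genes were not counted.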
